A study of Mus musculus with 6 samples.

Results

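All 4 arrays of mouse dermal fibroblasts treated with decitabine (5-aza-2'-deoxycytidine) were compared with the 2 arrays of untreated cells, and these make up the whole series of 6 arrays. Arrays were chosen by their titles, and the GFP-positive and GFP-negative fractions of the treated cells were given equal weight. The cells were grown out of dermis of newborn B6 mice, 0 to 2 days old, and were at passage 4. Their fathers had an X-linked GFP transgene under the chicken beta-actin promoter and a CMV enhancer on a mixed 129/ICR background, and their mothers were wildtype BL6. In all groups, cells without GFP had first been collected by FACS (sorting on fluorescence), and the design text places their transgene on the inactive X. Treated cells were given the drug at 4 μM, renewed daily, over 48 hours, followed by 24 hours in plain medium. They were then sorted once more, giving 2 GFP-positive and 2 GFP-negative samples. The 2 control samples were kept without drug for the same time and not sorted again, so the drug and the last sort cannot be told apart. The labels give mixed sex for control replicate 2 and female for every other sample. Whether both fractions of 1 replicate number came from 1 culture is not stated, and p-values therefore measure only the spread between these samples.

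Decitabine is a cytidine analogue that is built into DNA during replication and traps DNA methyltransferases there, chiefly Dnmt1, so that CG methylation is lost as cells divide. Genes held silent by promoter methylation, among them many genes of the germ line, are classic responders, and the trapped enzymes also count as DNA damage. Dermal fibroblasts are the cells that make the collagen, proteoglycan and elastic fibre matrix of the skin. The comparison asks which genes changed in treated cells whether or not the transgene had been switched on.

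Each array gave 1 MAS5 signal for each of 45101 probe sets, and arrays were scaled to a trimmed mean of 500. In all, 27022 probe sets were bright enough to be tested, covering 13212 genes. Each gene is shown at its brightest probe set, and every difference is on the scale of log2(signal + 30.6), on which the change of a dim gene comes out too small. The arrays of replicate 1 had median signals of 122.6 to 134.8 and those of replicate 2 of 79.8 to 81.1, so the replicate number marks an array set with 1 array of each group. Signals are listed with replicate 1 before replicate 2 in each group, and treated signals with the GFP-negative fraction first. A pair of fits is given, limma without a block and limma blocked on the array set (the blocked fit). Of 12 markers of dermal fibroblasts, 11 were on the arrays and all 11 were bright enough to be tested. In bulk samples of this kind, fewer cells of a type and less RNA per cell cannot be told apart.

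Among the largest rises called in both fits were those of Asb5, of the keratins Krt18, Krt8 and Krt7 and of the germ line genes Dazl, Gtsf1, Rhox5 and Tex19.1. The largest falls of named genes called in both fits were those of Ccn3, a secreted matricellular protein, and Gas1, a surface protein that binds Hedgehog ligands. Without a block, 49 probe sets passed an adjusted p of 0.05, which is 0.181% of those tested. Of these, 36 (0.133%) were higher and 13 (0.0481%) lower in treated cells, over 36 named genes and 7 probe sets without a gene name. All 49 were at least doubled or halved on each of the 4 treated arrays relative to the control array of the same number, with a median change of 2.34 in size. With arrays centred on their medians instead, 51 were called and the split was 28 higher to 23 lower. The blocked fit called 1889 probe sets (6.99%), including all 49, of which 992 (3.67%) were higher and 897 (3.32%) lower. On 1553 of the 1889 the treated and control arrays did not overlap, and 360 were at least doubled or halved on each treated array. Over all 27022 tested, 9.46% lay wholly above and 8.26% wholly below the controls, and 0.829% were doubled and 0.577% halved on each treated array. Median centring turned the split of the blocked calls to 824 higher and 1071 lower. At 1 probe set a gene, 24 genes (0.182%) were higher and 8 (0.0606%) lower without a block. The blocked fit called 1149 genes (8.7%), 605 higher (4.58%) and 544 lower (4.12%), with median changes of 0.93 and -0.83. Of the rises, 277 were at least 2-fold and 54 at least 4-fold, and of the falls 191 and 32. These blocked counts are the background for the gene groups below, beside a median change of 0.04 over all 13212 genes. The groups and their members were chosen with earlier results of these data known, so their counts are descriptions.

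The calls rested on a fit that lets the variance follow the signal level. With 1 prior variance for all levels limma called 0 probe sets, although 1817 had an unadjusted p under 0.05. The blocked fit then called 8, and 4534 had an unadjusted p under 0.05; the 8 include probe sets of Asb5, Krt18, Krt8 and Ccn3. Without control replicate 1 the unblocked count was 5, and without GFP-positive replicate 2 it was 11. The changes within replicate 1 and within replicate 2, which share no array, correlated with r = 0.405 over the 27022 probe sets, which are not independent of each other.

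**Figure D1:**
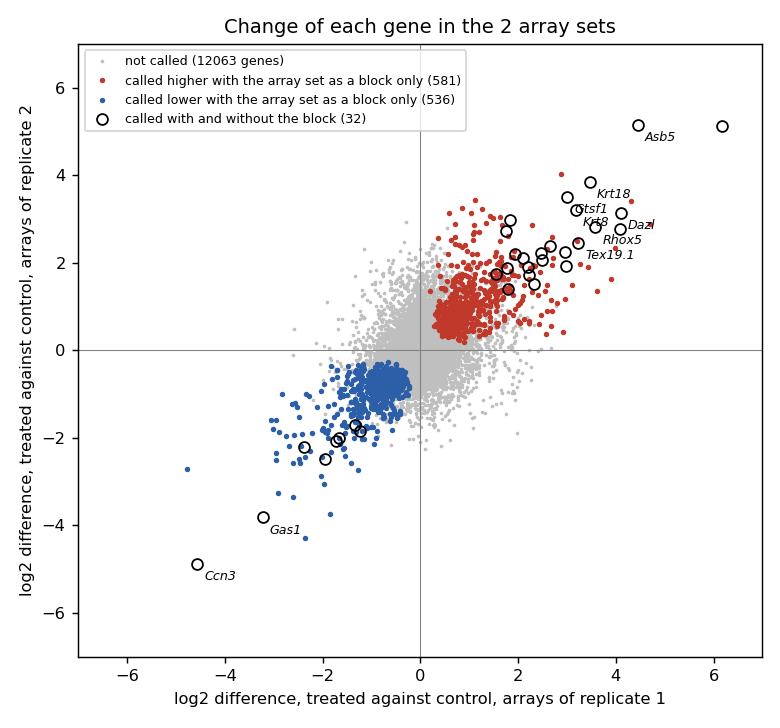
Each point is 1 of 13212 genes, with its log2 difference of treated from control cells within the replicate 1 arrays (horizontal) and within the replicate 2 arrays (vertical). Open circles mark the 32 genes called in both fits, and the 581 red and 536 blue points were called higher and lower in the blocked fit only. Asb5, Krt18 and Dazl lie at the upper right and Ccn3 and Gas1 at the lower left.

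Asb5, an adaptor of a ubiquitin ligase best known from muscle, showed the largest rise of the named genes apart from the clone-type gene Gm9222. Its signals were 33.8 and 2.10 in control, 1214 and 863 in GFP-negative and 1549.9 and 1496 in GFP-positive cells. The control signals were dim, so the gene could pass the filter on dim probe sets only through its treated arrays. All 4 treated arrays lay far above the controls, with a difference of 4.80 ± 0.33 (SE) and an adjusted p of 0.00793. Krt18, a keratin of simple epithelia that pairs with Krt8, had signals of 211 and 248.6 in control, 2292 and 3341 in GFP-negative and 3026 and 4784 in GFP-positive cells. The groups did not overlap, and Krt18 rose by 3.66 ± 0.26 (adjusted p = 0.00793), or by 3.46 within replicate 1 and 3.85 within replicate 2. Upstream sequences are shown for the first 4 of the named rises, since loss of CG methylation is the drug's known action. They are the 200 bases before the 5'-most annotated start in RefSeq, on build GRCm38.p6, written 5' to 3' on the gene's strand, with CG dinucleotides in capitals. The stretch of Asb5 is chr8:54550131-54550330 on the plus strand, that of Krt18 chr15:102028016-102028215 on the plus strand, that of Dazl chr17:50293621-50293820 on the minus strand and that of Gtsf1 chr15:103430428-103430627 on the minus strand.
Asb5: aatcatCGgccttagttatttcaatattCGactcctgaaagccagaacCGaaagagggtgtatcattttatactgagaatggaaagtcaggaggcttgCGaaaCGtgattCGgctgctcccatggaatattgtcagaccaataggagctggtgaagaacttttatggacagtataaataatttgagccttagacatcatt
Krt18: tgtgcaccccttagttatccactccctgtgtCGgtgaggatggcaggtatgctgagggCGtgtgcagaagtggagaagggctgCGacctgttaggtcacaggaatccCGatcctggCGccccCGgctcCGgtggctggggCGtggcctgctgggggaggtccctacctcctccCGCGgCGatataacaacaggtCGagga
Dazl: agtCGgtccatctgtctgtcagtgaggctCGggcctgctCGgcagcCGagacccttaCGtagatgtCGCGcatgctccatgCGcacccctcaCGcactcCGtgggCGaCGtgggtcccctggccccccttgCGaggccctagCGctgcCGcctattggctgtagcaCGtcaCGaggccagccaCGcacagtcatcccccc
Gtsf1: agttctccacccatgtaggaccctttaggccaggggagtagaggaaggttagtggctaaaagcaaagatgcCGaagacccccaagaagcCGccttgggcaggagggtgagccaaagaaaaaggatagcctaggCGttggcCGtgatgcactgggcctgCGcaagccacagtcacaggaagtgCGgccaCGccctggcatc
These windows hold 6, 12, 18 and 7 CG dinucleotides, so genes with few and with many CG dinucleotides upstream were among these rises.

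Other keratins of simple epithelia rose beside Krt18. Krt8 had signals of 93.9 and 126 in control against 852, 1085, 1405 and 1832 in treated cells, and it rose by 3.19 ± 0.25 (adjusted p = 0.00851), with all 3 of its probe sets called. Signals of Krt7, a keratin of ducts and glands, were 65.7 and 136 in control against 539, 774, 608 and 917 in treated cells, a rise of 2.52 ± 0.34 (adjusted p = 0.0452). Neither gene had a treated array at or below a control array. Of 21 tested genes for simple keratins and epithelial junctions, 10 were higher and 0 lower in the blocked fit, against 4.58% and 4.12% of all genes. Their median change was 0.76, and the 10 include Krt18, Krt8 and Krt7 themselves. Beside these 3 keratins, the desmosome protein Pkp2 rose by 0.76 (adjusted p = 0.0123 in the blocked fit), although its call was lost without control replicate 1. The count of higher members was 5 without GFP-positive replicate 2 or without control replicate 2.

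Keratinocytes also express many junction genes, and their own markers were read beside this group. Of 13 keratinocyte markers on the arrays only 7 were bright enough to be tested; Krt14, Krt1, Krt15, Krt17, Col17a1 and Krtdap were not. The cornified envelope protein Lor rose by 1.15 and the epithelial 14-3-3 protein Sfn by 2.28 in the blocked fit (adjusted p = 0.00678 and 0.0105), and both calls were lost without control replicate 2. Over the 7 tested, 2 were called higher and 0 lower, with a median change of 0.19. Changes were positive for 5 and negative for 2. The median was 0.004 within replicate 1 and 0.17 within replicate 2. The summed signal of the 7 was 1398 and 740.4 in control against 1274 to 2249 on the treated arrays. The part of such cells in the keratin rises was not tested.

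**Figure D2:**
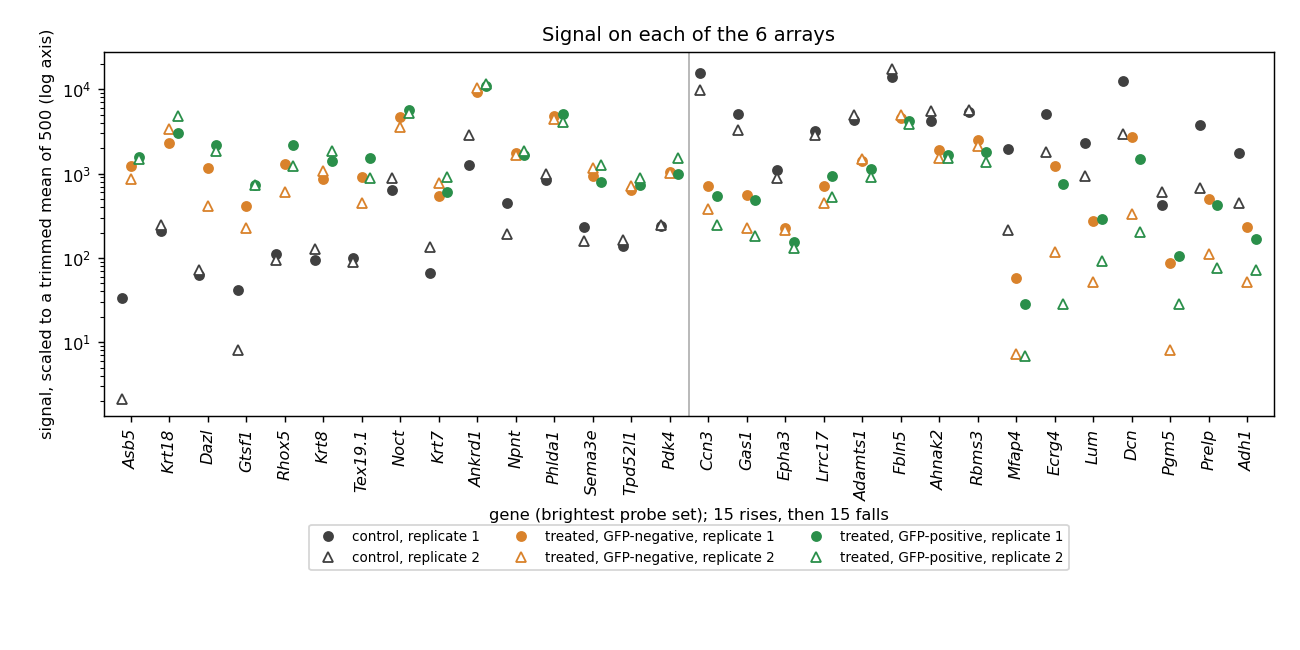
Scaled signal (log axis) on each of the 6 arrays for 15 rises (left) and 15 falls (right), filled up from the blocked fit where fewer than 15 passed without a block (7 of the falls); filled circles are replicate 1 and open triangles replicate 2, with control in dark grey, GFP-negative in orange and GFP-positive in green. Every treated point of the rises lies above both control points and every treated point of the falls below both.

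Several genes of the germ line rose. Dazl, an RNA-binding protein needed for germ cell development, had signals of 63.3 and 72.2 in control, 1150.5 and 407 in GFP-negative and 2155 and 1851 in GFP-positive cells. It rose by 3.62 ± 0.39 (adjusted p = 0.0239), and both of its probe sets were called. Gtsf1, a cofactor of the piRNA pathway that silences transposons, had signals of 42.1 and 8 in control, 415 and 224 in GFP-negative and 728 and 723 in GFP-positive cells and rose by 3.25 ± 0.39 (adjusted p = 0.0328). That probe set may also detect related transcripts, and both probe sets of the gene were called in the blocked fit. The X-linked homeobox gene Rhox5, which is normally active in testis and placenta, had signals of 112 and 95.3 in control against 1282, 597, 2185 and 1213 in treated cells and rose by 3.20 ± 0.37 (adjusted p = 0.0279). Tex19.1, a germ cell factor that restrains retrotransposons, had signals of 100.4 and 90.5 in control against 921, 449, 1536 and 893 in treated cells and rose by 2.84 ± 0.35 (adjusted p = 0.0375). On every one of these genes the lowest treated array belonged to the GFP-negative fraction of replicate 2, and it still lay above both controls. Of 41 listed germ line and methylation-silenced genes on the arrays, 21 were bright enough to be tested, and 6 of these were higher and 0 lower in the blocked fit, with a median of 0.94. The same counts of 6 and 0 were found without each of the 6 arrays in turn. The other members called were chosen after their values were seen. They were the mitochondrial carrier of sperm Slc25a31, higher by 2.33, and the testis transcription factor subunit Taf7l, higher by 1.85. Since dim genes could pass the filter only through the arrays on which they were bright, the count of 6 describes these 21 and not the 41.

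Many genes that ERK, the last kinase of the growth factor cascade, switches on and many AP-1 factors were higher in treated cells. Phlda1, an ERK-induced feedback gene, had signals of 849.7 and 982 in control against 4757, 4386, 5042 and 4097 in treated cells. It rose by 2.28 ± 0.19 (adjusted p = 0.00869). Signals of Fosl1, the AP-1 subunit Fra-1, were 304 and 444 in control against 1491, 1565, 1532 and 1952 in treated cells, a rise of 2.05 ± 0.23 (adjusted p = 0.0267). The phosphatases Dusp4 and Dusp14, which inactivate MAP kinases, rose by 1.81 and 1.45 in the blocked fit only (adjusted p = 5.06e-05 and 9.59e-05). Of 35 tested members of this group 21 were higher and 2 lower in the blocked fit, with a median of 0.74. The members that fell, chosen after their values were seen, were the ERK pathway inhibitors Spry1 (-1.16) and Spry2 (-0.67). Leaving out 1 array left between 15 and 19 higher members.

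Among ligands of the EGF receptor, Ereg and Hbegf rose. Ereg, the ligand epiregulin, had signals of 448 and 462 in control against 2479, 1685, 1951 and 1529.8 in treated cells and rose by 1.98 ± 0.23 (adjusted p = 0.0291). Hbegf, the heparin-binding ligand, rose by 1.64 ± 0.11 in the blocked fit (adjusted p = 1.30e-05), with signals of 1098 and 2553 in control against 3815, 8761, 3289 and 7174 in treated cells. The receptor inhibitor Errfi1 rose by 1.28 and the related inhibitor Lrig3 fell by 0.81 in that fit, the latter call being lost in 4 of 6 fits without 1 array. These were the only called members among 14 tested, whose median change was -0.02.

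Secreted signals of inflammation split by gene. Ptgs2, the inducible cyclooxygenase of prostaglandin synthesis, had signals of 1949.9 and 3252 in control against 12432, 9686, 7931 and 8965 in treated cells and rose by 1.92 ± 0.25 (adjusted p = 0.0392). The prostaglandin transporter Slco2a1 rose by 0.94 in the blocked fit and the prostacyclin synthase Ptgis fell by 0.47, a call lost in 4 of 6 fits that left out 1 array. Among 25 chemokines and cytokines, 5 were higher and 3 lower in the blocked fit. The monocyte chemokine Ccl2 rose by 1.41 ± 0.12, the IL-6 family cytokine Il11 by 2.10 ± 0.19 and the macrophage growth factor Csf1 by 1.19 ± 0.12 (adjusted p = 3.70e-05, 8.13e-05 and 0.000201). Osmr, a receptor of the same cytokine family, fell by 0.72.

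Other named rises came from several functions. Noct, a deadenylase-like enzyme with circadian expression, had signals of 633 and 884 in control against 4624, 3564, 5724 and 5186 in treated cells and rose by 2.60 ± 0.22 (adjusted p = 0.00869). Ankrd1, a stretch-responsive cofactor of striated muscle, was already bright in control, with signals of 1248 and 2837 in control against 9319, 10352, 10792 and 11554 in treated cells, and rose by 2.46 ± 0.31 (adjusted p = 0.0375). Control replicate 2 was more than double control replicate 1 on that gene, so its rise was 2.98 within replicate 1 and 1.94 within replicate 2. The integrin ligand Npnt rose by 2.41 ± 0.31, the guidance ligand Sema3e by 2.24 ± 0.28, Tpd52l1 by 2.10 ± 0.24 and Pdk4, a kinase that shuts off pyruvate dehydrogenase, by 2.08 ± 0.24. Adjusted p-values of these 4 lay between 0.0267 and 0.0392. The treated signals of Pdk4 were 992 to 1514, against 241 and 243 in control. The clone-type genes Gm9222, U90926 and 3830417A13Rik also passed, with differences of 5.64, 3.43 and 2.34. The probe set of Gm9222 may also detect related transcripts. The largest change called without a block, 6.73 ± 0.72 (adjusted p = 0.0239), was on a probe set without a gene name. That probe set may also detect related transcripts. Its signals were 181 and 33.5 in control against 18848, 3460, 28121 and 12539 in treated cells. The other probe sets without a gene name called in that fit rose by 1.65 to 4.86.

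Asb5 and Ankrd1 belong to a group of stress-induced muscle and cytoskeletal genes of which 22 were tested, so the count for the group includes their own rises. Of these, 4 were higher and 0 lower in the blocked fit, with a median of 0.21; the others were Filip1l (0.60) and Fhl1 (0.54), neither of which was called without control replicate 1. Without control replicate 2 the count was 8. Markers of skeletal muscle were read beside them. Of 14 on the arrays 5 were bright enough to be tested, and the muscle myosins Myh1, Myh2, Myh3 and Myh8 were not. The intermediate filament Des rose by 2.14 ± 0.31 and the sarcomeric actin Acta1 by 1.11 ± 0.18 in the blocked fit (adjusted p = 0.00201 and 0.00426). The summed signal of the 5 was 4511 and 9524 in control against 13210 to 16860 on the treated arrays, and its part in the rises of Asb5 and Ankrd1 was not tested.

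Targets of p53, the transcription factor of the DNA damage response, rose in part. Mdm2, its ubiquitin ligase and feedback inhibitor, had signals of 1795 and 2371 in control, 4245 and 4959.7 in GFP-negative and 5543 and 7526 in GFP-positive cells. All 4 treated arrays exceeded both controls, with a difference of 1.39 ± 0.22 that did not pass without a block (adjusted p = 0.0702) and passed with it (adjusted p = 3.70e-05). In the blocked fit the apoptosis gene Pmaip1 rose by 1.58, the costimulatory ligand Cd80 by 2.07 and the cell cycle inhibitor Cdkn1a by 0.63 (adjusted p = 0.000168, 0.00505 and 0.00475). Cdkn1a was bright throughout, with signals of 6804 and 7761 in control against 11316, 10837, 11306 and 11567 in treated cells. Of 35 tested targets 9 were higher in the blocked fit and 1, the growth arrest gene Gadd45a, was lower (-0.74), with a median of 0.36. Only 4 were higher without GFP-positive replicate 2.

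Some genes of DNA replication also rose. Of 41 tested, 9 were higher and 0 lower in the blocked fit, with a median of 0.35, but only 2 were higher without control replicate 2 and 4 without GFP-negative replicate 2. The single-strand binding subunit Rpa1 rose by 0.92 and the ribonucleotide reductase subunit Rrm2 by 0.99 (adjusted p = 0.000766 and 0.00161), and both kept their calls without each array in turn. The S phase cyclins Ccne2 and Ccne1 rose by 0.98 and 0.71, but not without control replicate 2. Among 44 genes of mitosis and cytokinesis 3 were higher and 0 lower, close to the background of 4.58%. These were Ube2c (0.54), Aurka (0.55) and Ect2 (0.64), and none of this group was called without GFP-positive replicate 2 or without GFP-negative replicate 1.

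The falls were led by secreted and surface proteins. Ccn3 had signals of 15436 and 9777 in control, 709 and 376 in GFP-negative and 547 and 243 in GFP-positive cells. All treated signals lay far below both controls, and Ccn3 fell by 4.72 ± 0.38 (adjusted p = 0.00869), with both of its probe sets called. Gas1 had signals of 5109 and 3291 in control, 551 and 229 in GFP-negative and 486 and 183 in GFP-positive cells and fell by 3.52 ± 0.45 (adjusted p = 0.0392). Epha3, a receptor tyrosine kinase for ephrins, had signals of 1097 and 890.0 in control against 228, 214, 153 and 131 in treated cells and fell by 2.29 ± 0.26 (adjusted p = 0.0267). For none of them did a treated array reach a control array. The promoter table gives no entry for Ccn3, so the stretches of the 2 next falls are shown, on GRCm38.p6 and in the same form. They are chr13:60177536-60177735 for Gas1 and chr16:63864176-63864375 for Epha3, both on the minus strand, and they hold 9 and 12 CG dinucleotides.
Gas1: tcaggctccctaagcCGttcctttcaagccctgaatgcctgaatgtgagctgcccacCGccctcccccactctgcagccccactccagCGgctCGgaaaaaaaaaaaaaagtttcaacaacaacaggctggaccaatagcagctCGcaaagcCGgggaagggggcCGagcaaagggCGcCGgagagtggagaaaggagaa
Epha3: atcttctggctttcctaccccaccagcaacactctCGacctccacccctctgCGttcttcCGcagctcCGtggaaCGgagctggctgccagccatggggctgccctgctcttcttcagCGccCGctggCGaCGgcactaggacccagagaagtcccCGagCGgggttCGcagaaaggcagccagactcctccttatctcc
Both are thus no poorer in CG than the stretch of Gtsf1, which rose.

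Of the other falls called without a block, Lrrc17, a secreted leucine-rich protein, fell by 2.21 ± 0.29, with signals of 3229.6 and 2859 in control against 706, 448, 943 and 526 in treated cells. The secreted metalloproteinase Adamts1 fell by 1.90 ± 0.19 and Fbln5, which assembles elastic fibres, by 1.84 ± 0.18 (adjusted p = 0.023 and 0.0208). Fbln5 stayed among the bright genes, with signals of 13877 and 17556 in control against 4584, 4904, 4143 and 3848 in treated cells. Ahnak2, a large scaffold protein, fell by 1.54 ± 0.21 and the RNA-binding protein Rbms3 by 1.53 ± 0.20. No treated array of these 5 genes overlapped a control array. Ptn, Marcks, Niban1 and Col11a1 were called without a block only at a probe set other than their brightest. There Ptn fell by 3.09 ± 0.41, Marcks by 1.83 ± 0.20, Niban1 by 1.55 ± 0.20 and Col11a1 by 1.52 ± 0.20. Their adjusted p-values without a block lay between 0.0239 and 0.0452.

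Larger falls of matrix genes passed only in the blocked fit, and some of their controls differed widely between the array sets. Decorin (Dcn), a small proteoglycan that coats collagen fibrils, had signals of 12516 and 2957 in control, 2720.4 and 334 in GFP-negative and 1496 and 203 in GFP-positive cells. Control replicate 2 was close to GFP-negative replicate 1, and the difference was -2.61 within replicate 1 and -3.36 within replicate 2 (blocked adjusted p = 5.07e-06, or 0.446 without a block). Lumican (Lum), its relative, had signals of 2319.8 and 934 in control against 274, 51.6, 291 and 93.0 in treated cells and fell by 3.08 ± 0.21. Mfap4, of elastic microfibrils, fell by 3.75 ± 0.48, the proteoglycan Prelp by 2.73 ± 0.19, the secreted peptide precursor Ecrg4 by 3.32 ± 0.34, the retinol-oxidising enzyme Adh1 by 2.66 ± 0.26 and Pgm5, a protein of adhesion sites, by 2.79 ± 0.43. Blocked adjusted p-values of these 6 genes lay between 1.53e-05 and 0.00275. Pgm5 alone among them lost its call when 1 array was left out (control replicate 2).

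As a group, the small proteoglycans, elastic fibre and matricellular genes were lower. Of 41 tested, 21 were lower and 4 higher in the blocked fit, with a median of -0.59 and 18 to 21 lower members without any 1 array. Collagen chains moved less. Of 26 tested, 7 were lower and 1 higher, with a median of -0.29. Col11a1, a minor fibrillar chain, fell from 5410.2 and 2278 in control to 1819.9, 1104, 1342 and 817 (blocked adjusted p = 0.000138). At its other probe set it fell by 1.52 and was called without a block as well (adjusted p = 0.042). The microfibrillar chains Col6a2 and Col6a1 fell by 1.36 and 1.16 (blocked adjusted p = 0.000444 and 0.000173). The anchoring fibril chain Col7a1 rose, from 927 and 938 in control to between 1669 and 2469, by 1.17 ± 0.15.

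Among 32 matrix proteases and inhibitors, 13 were lower and 5 higher in the blocked fit. Adamts5, an aggrecan-cutting protease, fell by 2.08 and Pappa, which cleaves binding proteins of insulin-like growth factors, by 1.48, while Plaur, the urokinase receptor, rose by 1.47 (adjusted p = 2.92e-05, 0.000113 and 6.17e-05). Of 11 dermal fibroblast markers 7 were lower and 0 higher, with a median of -0.83, and Lum and Dcn are among them. The growth factor receptor Pdgfra fell by 1.42 and dermatopontin (Dpt) by 1.30. The summed signal of the 11 was 201800 and 204600 in control against 160000 to 171800 on the treated arrays. Of 32 mesenchymal transcription factors 6 were lower and 1 higher. The limb and skin homeobox factor Prrx1 fell by 0.84 and Osr1 by 1.89, and the forkhead factor Foxf1 rose by 1.19 (adjusted p = 0.000927, 0.00186 and 0.00307). Without control replicate 1 only 2 of that group were lower.

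Many enzymes and regulators of sterol and fatty acid synthesis fell. Of 32 tested genes 17 were lower and 0 higher in the blocked fit, with a median of -0.73. Hmgcs1, which makes the precursor of mevalonate, had signals of 8487 and 11760.3 in control, 2694 and 5479.7 in GFP-negative and 2652 and 5778 in GFP-positive cells and fell by 1.36 ± 0.14 (adjusted p = 0.000183). All 4 treated signals were below both controls, and those of replicate 2 were higher than those of replicate 1. Fdps, which makes farnesyl pyrophosphate, fell by 1.37, the sterol sensor Insig1 by 1.31 and the sterol methyl oxidase Msmo1 by 0.95 (adjusted p = 0.00329, 0.00217 and 0.00187). Falls were larger within replicate 1 than within replicate 2 for all 4. The number of lower members was 9 without control replicate 1.

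Receptors and secreted regulators fell in several growth and patterning pathways. Of 39 Wnt pathway genes 8 were lower and 2 higher. The secreted antagonist Sfrp1 fell by 2.59 ± 0.23 and all 5 of its probe sets were called in the blocked fit, the receptor Ror1 fell by 1.89, and Fzd1 and Fzd2 by 1.12 and 1.02. Of 16 genes of the insulin-like growth factor axis 5 were lower and 0 higher, among them the signalling adaptor Irs1 (-1.14), the clearance receptor Igf2r (-0.88) and the binding proteins Igfbp3 (-2.33) and Igfbp2 (-0.81). Igfbp3 had signals of 2452 and 169.8 in control against 318, 48.4, 226 and 24.7 in treated cells, and its groups overlapped across the array sets. Of 41 guidance genes 6 were lower and 5 higher. Epha3 fell and Sema3e rose, as given above, and the ligands Slit2 and Slit3 fell by 1.91 ± 0.11 and 1.43 ± 0.13. In the TGF-beta and BMP group, 5 of 32 were lower and 1 higher: Acvr2a fell by 1.49, Tgfbr3 by 1.30 and the BMP antagonist Grem1 by 0.91, and the activin subunit Inhba rose by 1.01.

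Imprinted genes, whose parental silencing depends on DNA methylation, were more often lower than higher. Of 29 tested, 5 were lower (17.2%) and 2 higher (6.9%) in the blocked fit, with a median of -0.09. Over all genes these shares were 4.12% and 4.58%. Peg3, a zinc finger protein of the paternal allele, had signals of 2087 and 2132 in control against 957, 776, 669 and 574 in treated cells and fell by 1.49 ± 0.15 (adjusted p = 0.00013, or 0.0512 without a block). Igf2r and the growth inhibitor Grb10 fell by 0.88 and 0.71. The drug's own targets passed in neither fit. Dnmt1 differed by 0.43, its partner Uhrf1 by 0.40, Dnmt3a by -0.23 and Dnmt3b by 0.04, with blocked adjusted p-values of 0.119, 0.203, 0.59 and 0.965. The sign of Dnmt3b turned with quantile normalization (-0.014) and with median centring (-0.0099).

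Stress programmes went in different directions. Of 33 genes of the endoplasmic reticulum and integrated stress response 9 were lower and 0 higher, or 4 without GFP-positive replicate 2. The pseudokinase Trib3 fell by 1.66 ± 0.16 and the lipoprotein receptor Vldlr by 0.96. Of 27 heat shock genes 4 were higher and 0 lower; Hspb1 rose by 0.71, and the other 3 rose by less than 0.5 and lost their calls in 4 to 6 of the 6 fits without 1 array. Of 28 metallothionein and NRF2 genes 5 were higher and 3 lower, with a rise of 1.31 for the metal-binding Mt2 and a fall of 0.91 for the glutathione transferase Gsta4. Neither ribosomal proteins (0 of 26 in either direction) nor oxidative phosphorylation (1 of 39 higher, Cycs, by 0.64) showed more than single calls.

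**Figure D3:**
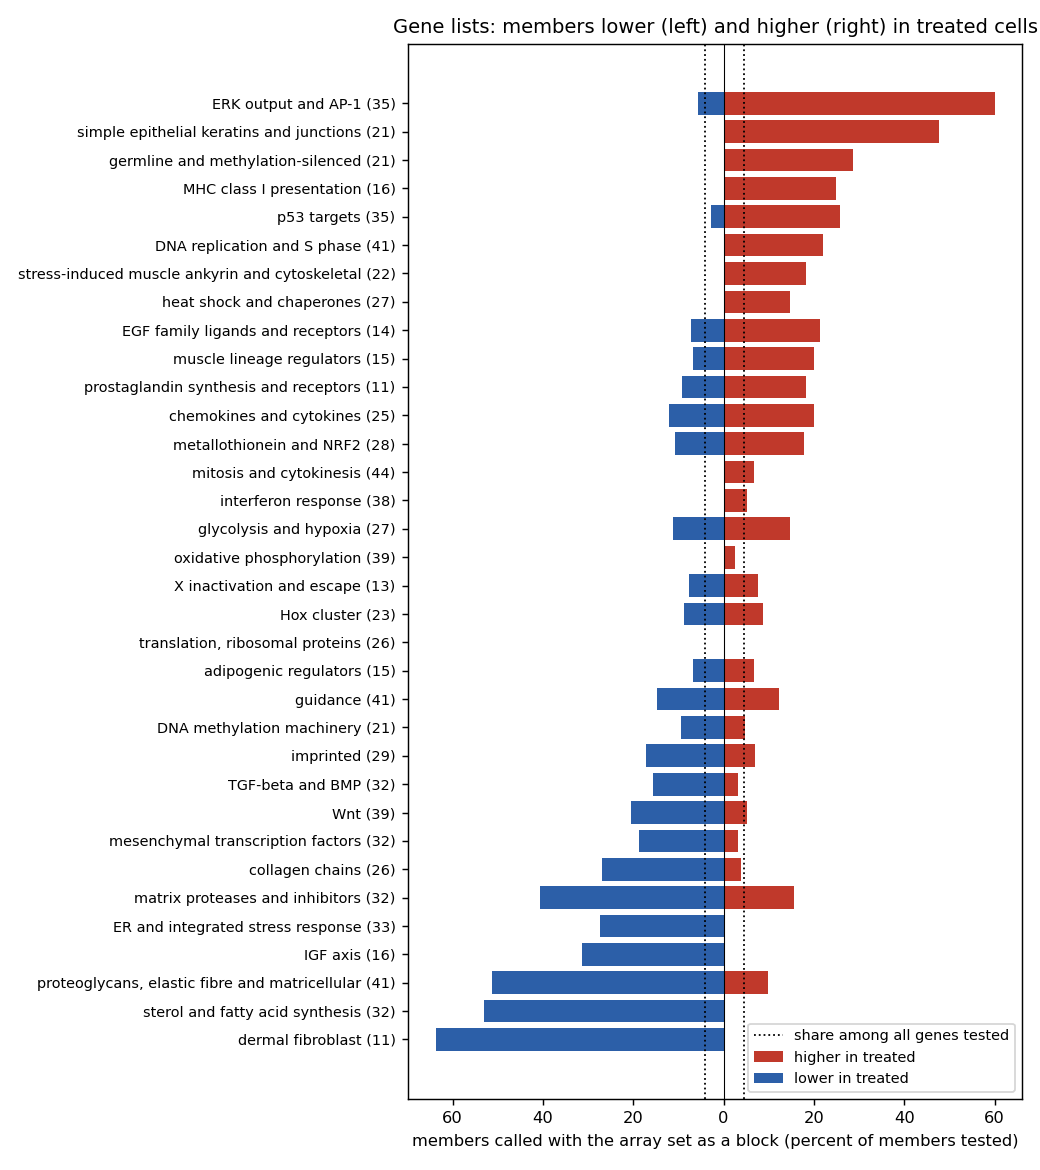
Share of the tested members of each larger gene group (number tested in brackets) called lower (bars to the left) or higher (to the right) in treated cells in the blocked fit, in percent. Groups with 9 or fewer tested members are left out. Dotted lines mark the shares over all 13212 genes, 4.12% lower and 4.58% higher; ERK output and AP-1 genes reach 60% higher and dermal fibroblast markers 63.6% lower.

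The interferon response differed between the array sets. Its 38 tested genes had a median change of 0.77 within replicate 1 and -0.05 within replicate 2. Only Usp18 and Rtp4 were higher in the blocked fit, by 1.80 and 1.66, and the call of Rtp4 was lost without control replicate 1. Without control replicate 2 the group had 15 higher members, and without control replicate 1 it had 1 higher and 2 lower. Usp18, an interferon-induced protease, had signals of 159 and 169 in control against 1246, 347, 1141 and 339 in treated cells. Among 16 genes of class I antigen presentation 4 were higher and 0 lower. H2-D1 and H2-M3 rose by 0.82 and 1.21 (adjusted p = 0.00161 and 0.00234), while H2-K1 (0.77) lost its call without control replicate 1 and the peptide transporter Tap1 (0.77) whichever of the 6 arrays was left out. Of 15 leukocyte markers on the arrays 8 were bright enough to be tested, and Ptprc, Itgam and Cd3e were not. The macrophage protein Cd68 was higher by 1.30, a call lost in 5 of 6 fits without 1 array. The summed signal of the 8 was 1403 and 858 in control against 1535 to 2137 on the treated arrays, and their part in these changes was not tested.

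Other groups held few calls in number in the blocked fit, beside shares over all genes of 4.58% higher and 4.12% lower. Of 23 Hox genes 2 were higher and 2 lower (8.7% each), and of 27 glycolysis and hypoxia genes 4 and 3 (14.8% and 11.1%). Of 21 genes of DNA methylation and its readers 1 was higher and 2 lower (4.76% and 9.52%). Of 15 muscle lineage regulators 3 were higher (20%) and 1 lower (6.67%). The higher members were Id1 (1.04) and Id2 (1.46), which block differentiation factors, and the receptor subunit Chrnb1 (1.08). None of these 3 kept its call without GFP-positive replicate 2 or without control replicate 2. Of 15 adipogenic regulators 1 was higher and 1 lower (6.67% each), and of 9 histone-related genes 1 was higher (11.1%). Of 13 genes of X inactivation and escape 1 was higher and 1 lower (7.69% each). Markers of other dermal cells were also few. Of 6 tested endothelial markers Esam was higher by 1.52, a call lost in 5 of 6 fits without 1 array. Of 8 smooth muscle markers Itga8 was lower by 1.88, and of 7 Schwann cell markers Pmp22 by 0.63. The change of Pmp22 depended on the arrays used, from -1.01 to -0.26 in blocked fits without 1 array. Neither the 4 melanocyte nor the 2 adipocyte markers tested gave a call (both at 0). Perp and Tap1 stand in more than 1 of the groups above, as do Dcn and Igf2r.

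X-linked genes changed about as often as others. Of 444 tested, 21 (4.73%) were higher and 20 (4.5%) lower in the blocked fit. Beside Rhox5, the actin regulator Shroom4 had signals of 65.3 and 377 in control against 1985, 1317, 979 and 1163 in treated cells and rose by 2.77 ± 0.39. Xist, the RNA that coats the inactive X, had signals of 5386 and 832 in control, 4217 and 547 in GFP-negative and 3497 and 518 in GFP-positive cells. All 3 arrays of replicate 2 were far lower than those of replicate 1, although both treated ones are labelled female. Xist fell by 0.55 ± 0.13 in the blocked fit (adjusted p = 0.0268), a call that was lost in 5 of 6 fits without 1 array, and without a block its adjusted p was 0.994.

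The sorted fractions were compared directly. Of the 27022 probe sets, 0 passed between GFP-positive and GFP-negative cells in either fit (169 at an unadjusted p under 0.05 without a block and 1553 with it, and a smallest adjusted p of 0.0681 with the block). The genes that rose did so by a median of 0.99 in GFP-positive and 0.89 in GFP-negative cells, and those that fell by -0.91 and -0.75. These genes were chosen on the mean of both fractions against the same controls, so the shared sign is largely fixed by the choice. Among the 605 rises, 268 (44.3%) were higher in GFP-positive than in GFP-negative cells in both array sets and 121 (20%) lower in both. Of the 544 falls 297 (54.6%) were lower and 61 (11.2%) higher in GFP-positive cells in both. Over all genes these shares were 27.6% higher and 27.3% lower. The difference of single genes varied. Dazl differed by 4.37 from control in GFP-positive and by 2.87 in GFP-negative cells (95% interval of the difference 0.80 to 2.19). GFP-positive minus GFP-negative was 1.17 (95% interval 0.48 to 1.85) for Gtsf1 and 0.72 (95% interval 0.31 to 1.13) for Krt8, all from the blocked fit and unadjusted. For Phlda1 it was -0.01 (95% interval -0.34 to 0.33), for Ankrd1 0.18 (95% interval -0.30 to 0.66) and for Hmgcs1 0.03 (95% interval -0.33 to 0.38). Ereg stood at -0.24 (95% interval -0.63 to 0.16) and Pappa at -0.82 (95% interval -1.18 to -0.46). Intervals that include 0 do not show that the fractions were alike.

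**Figure D4:**
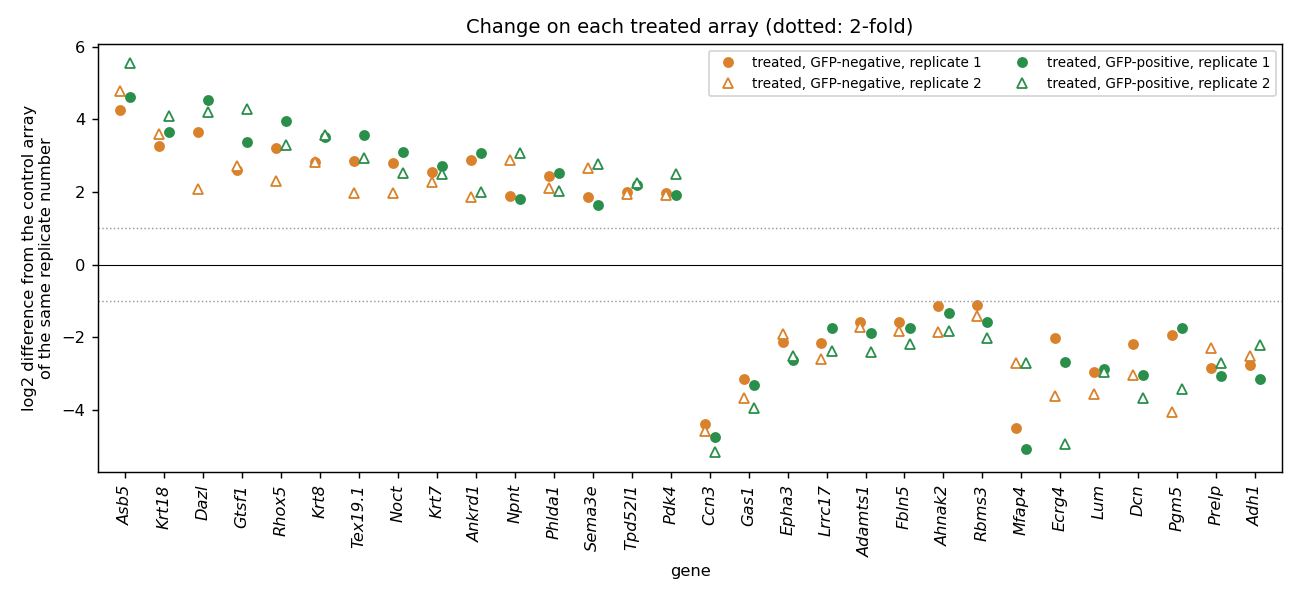
Log2 difference of each of the 4 treated arrays from the control array of the same replicate number, for the same 15 rises and 15 falls; orange is GFP-negative and green GFP-positive, filled circles are replicate 1 and open triangles replicate 2. All points lie beyond the dotted lines at a 2-fold change, and those of Dazl spread more widely than those of Tpd52l1.

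The promoters of the strongest risers were read for CG content. A promoter of 300 bases (250 before and 50 after the 5'-most start in RefSeq, GRCm38.p6) was found for 10653 of the 13212 genes. Of 126 genes that were called higher in the blocked fit and at least doubled on each treated array, 106 had one. Over all genes 1.02% were at least doubled and 0.696% at least halved on each treated array, 1.72% in all. Treated arrays lay wholly above the controls for 10.8% and wholly below for 9.21% of all genes. The promoters of the 106 held a median of 12.5 CG dinucleotides, against 20 over all genes. Dim genes have fewer: the 1620 genes with a control signal no higher than the median of these risers (105.6) had a median of 9. Risers above that signal had a median of 16 and all genes above it 21, while risers at or below it had 9, the same as equally dim genes. Of the 91 genes called lower and at least halved on each array, only 58 (63.7%) had a promoter. Those 58 held a median of 11, so a median below 20 was not particular to the risers. With so many promoters missing, that value is only a description.

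The same windows were searched on both strands for the letters TGANTCA, the core of AP-1 sites, in which N is any base. They were found in 18 of the 106 strong risers (17.0%) and in 5.34% of all promoters. Among the 1620 genes as dim in control as the dimmer risers, 154 (9.51%) held them. Of the 106 risers 53 lay above that signal, so these shares are not matched for signal. Tex19.1 and the urokinase receptor gene Plaur are among genes with a match. A match describes the letters only. In the 14 higher members of the ERK and AP-1 group that had a promoter, 0 held the letters, as did 0 of all 26 members with one. These 14 are 66.7% of its 21 higher members. At a share of 5.34% over all promoters, so few windows could hold none, so these counts cannot decide whether the group differs. The letters TGACGTCA, of cyclic AMP response elements, were found in 2 of the 106 and in 3.05% of all promoters, and TATAAA in 15 of the 106 (14.2%) and in 7.96%. The letters CCAAT stood in 34.9% and 38.7%, and TCACNCCAC, the sterol response element, in 0 of the 106 and 1.08%. These 5 searches can overlap one another in a window, and no test was made of the differences.

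**Figure D5:**
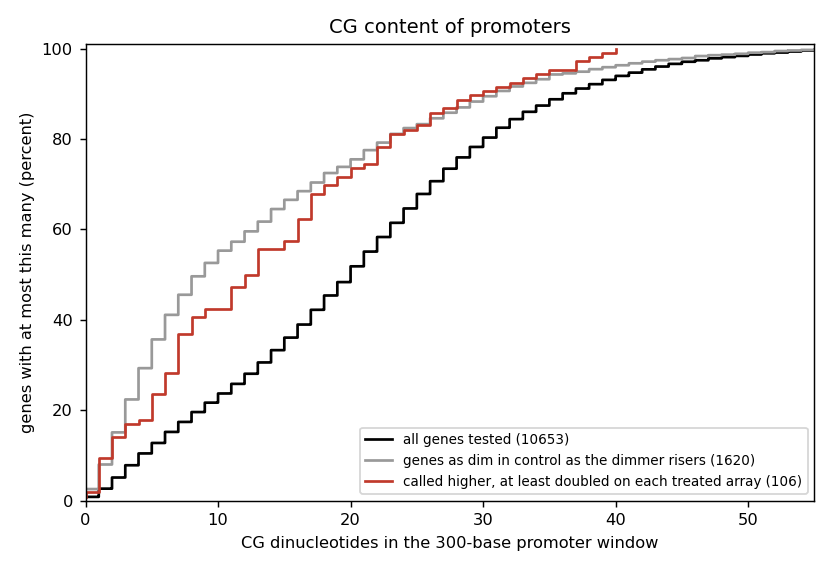
Cumulative share of genes (percent) by the number of CG dinucleotides in their 300-base promoter window, for all 10653 genes with a promoter (black), the 1620 genes as dim in control as the dimmer strong risers (grey) and the 106 strong risers (red). The red line lies between the grey and the black one over the left part of the scale, with a median of 12.5 against 9 and 20.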

How the data were processed

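RNA of 6 samples was read on Affymetrix mouse arrays. The deposited values are MAS5 signal intensities, 1 per probe set, per the submitters' processing notes; which version was run, and how, is not given in the sources used here. Intensities were scaled to a 2% trimmed mean of 500 on each array, with factors of 8.06 and 9.90 for GFP-negative and GFP-positive replicate 2 and near 1 for the others. After 64 control probe sets were left out, a probe set was kept where its mean passed the 40th percentile (67.7). Of 45037 probe sets 34945 had 1 gene symbol, 932 several and 9160 none. The contrast, with GFP-positive and GFP-negative cells at equal weight against control, was fitted to log2(signal + 30.6) with limma 3.58.1 (R 4.3.3, eBayes with a trend), and p-values were Benjamini-Hochberg adjusted over 27022 probe sets at 0.05. The fit reported first had no block. Deviations of same-numbered arrays from their group means correlated at 0.506 to 0.556 across probe sets, over only 2 numbers, so counts blocked on the number are given beside the others. Genes called without a block are given with their unblocked SE and adjusted p, and all of them also passed in the blocked fit. Fits were tested on simulated data. The number of arrays limits the precision.

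Genes were named by a rule. It took up to 15 rises and 15 falls in order of size among genes called without a block whose treated arrays all lay beyond both controls, clone-type symbols left out. Where these were fewer than 15, it went on with genes called only in the blocked fit, so larger blocked-only changes can be missing. It also took up to 4 called members of smallest blocked p in each list, and Xist, Dnmt1, Dnmt3a, Dnmt3b, Uhrf1, Cdkn1a and Mdm2. Members and lists were chosen with earlier results of these data known. Of symbols with 1 gene, 34943 matched the RefSeq gene table.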

Additional observations from a re-analysis of the deposited data

How the results depend on the processing

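Without a block 49 probe sets were called, and the replicate block (array set) gave 1889. Other settings gave 81 with no filter on dim probe sets, 0 with no variance trend (1817 at an unadjusted p under 0.05), 14 with both fractions averaged first, 140 at an adjusted p under 0.10, 8 under 0.01, 124 without both rescaled arrays (chosen after seeing the data) and 5 to 34 without any 1 array. Quantile normalization (70), median centring (51), 4 times (46) or 0.25 times the offset (50), a 60th percentile filter (48) and unique probe sets (48) stayed within 1.5 times. Of the 49, 46 were among the 70 and 24 among the 51. For treated against control, probe sets called with the array set as a block numbered 8 without a trend, 2927 under 0.10, 828 under 0.01 and 1206 to 1975 without any 1 array. GFP-positive against GFP-negative cells gave 0 without a block under each setting above except averaged fractions, which cannot be compared, and 0 with the replicate block at 0.05. Of 141 named genes, 26 lost their unblocked call without a trend. The sign turned for 6 named genes. Leaving out 1 array gave -0.071 to 1.36 for Ect2, -1.40 to 0.16 for Zbtb4, -0.42 to 2.72 for Hoxa5, -1.88 to 0.77 for Xist, -0.73 to 0.27 for Dnmt3a and -0.31 to 0.38 for Dnmt3b. Without both rescaled arrays Zbtb4 was 0.093, Xist 0.84 and Dnmt3a 0.28. Dnmt3b was -0.014 with quantile normalization, -0.0099 with median centring and -0.22 as a mean of probe sets. The median of all probe sets moved from 0.04 to 0.14 without both rescaled arrays, to 0.12 without control replicate 1 and to -0.10 without control replicate 2. The causes were not tested. Signals near background limit the dim genes.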

Other observations

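Some genes with large changes lie outside the groups described above and were picked after their values were seen. In the epidermal differentiation complex, a cluster of cornified envelope genes on chromosome 3, 24 genes were tested. Of these, 8 were higher and 0 lower in limma blocked on the array set, against 4.58% and 4.12% of all genes. Their median was 0.63. Dim genes such as Prr9 (45.8 and 6.30 in control) could pass the filter only through the treated arrays. Sprr1a, a precursor of the cornified envelope, had signals of 227 and 219 in control against 776, 1592, 758 and 2568 in treated cells, a difference of 2.33. Crct1 of the same complex had signals of 92.4 and 147 in control against 503, 752, 459.6 and 572 in treated cells, a difference of 2.00. The treated arrays of both genes lay above both controls. Keratinocyte keratins such as Krt14 and Krt1 were too dim to be tested, and the part of such cells was not tested.

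Further genes of meiosis and sperm formation were higher beside Dazl. Mnd1, needed for strand exchange between homologous chromosomes, had signals of 3 and 4.80 in control against 621, 80.6, 1135 and 586 in treated cells. The difference was 3.79, and so dim a gene could pass the filter only through its treated arrays. GFP-negative replicate 2 was much the lowest of its treated arrays. The germ cell transcription factor Sohlh2 differed by 1.57 and Ccnb1ip1, which acts at crossovers, by 1.64. Among other genes, the fetal liver protein Afp differed by 2.85, the serpin Serpinb2 by 3.45 and the histone methyltransferase Suv39h2 by 2.13. Of 16 complement-related genes tested 3 were lower and 1 higher in the blocked fit, against 4.12% and 4.58% of all genes, with a median of -0.03. The protease C1ra differed by -2.01, its inhibitor Serping1 by -1.15, C1qtnf3 by -1.04 and the lectin pathway protease Masp1 by 1.43. These genes were chosen for their change, so their values are a description.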
